A study of Homo sapiens with 4 samples.

Results

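MHC class I antigen presentation was followed through 9 genes in ribosome footprint libraries of human colorectal cancer cells: the heavy chains HLA-B, HLA-C and HLA-E, the light chain B2M, the peptide transporter chains TAP1 and TAP2, the loading factor TAPBP, the trimming peptidase ERAP1 and the transactivator NLRC5. The genes were found by their symbols among the 20323 rows of each count file. All 9 were present and all 9 passed the filter on low counts. TAP2 had 2 rows, of which the smaller, a readthrough with HLA-DOB, held 0 counts in 3 libraries and 11.2 counts in OE replicate 2, so the larger row (2742 counts there, 2754 for the sum) was used.

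The cells were HCT-8, an established line from a colorectal adenocarcinoma that had been made tolerant of 5-fluorouracil (5-FU), a pyrimidine analogue used in chemotherapy. One group was transfected with a negative control plasmid (NC) and the other with a plasmid overexpressing METTL14 (OE), which together with METTL3 forms the enzyme that writes N6-methyladenosine on messages. Both groups were 5-FU-resistant and received cycloheximide at 100 ug/mL, which stalls ribosomes on their messages. Each group had 2 libraries, described as independent experiments, and the comparison asks which messages gained or lost footprints when METTL14 was overexpressed. No total RNA values were used, so a footprint count combines the amount of a message with its occupancy by ribosomes. A transfected population mixes cells that took up plasmid with cells that did not, and the share of each is not given in the sources used here.

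Class I molecules show peptides from inside the cell to CD8 T cells and natural killer cells. Peptides cut by the proteasome are pumped into the endoplasmic reticulum (ER) by TAP1 and TAP2, trimmed there by ERAP1, and placed on a heavy chain paired with B2M while TAPBP (tapasin) holds the heavy chain at the transporter. NLRC5 does not bind DNA by itself, but joins the RFX, CREB/ATF and NF-Y factors that sit on the S, X and Y boxes of class I promoters, and interferon regulatory factors act on a nearby interferon-stimulated response element (ISRE).

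Promoter stretches are shown first because NLRC5, which joins factors on the S, X and Y boxes, is itself among the genes measured. Letters of the S box and of the RFX site were not searched. The ISRE core, the only element marked in TAP1, TAP2 and TAPBP, belongs to interferon regulatory factors. No element was found in every member. RefSeq windows of GRCh38.p14 (250 bases before to 50 after a gene start) were matched by symbol for 7 of the 9 members. That build is not the build of the count files. Capitals mark the ISRE core (GAAA, any 2 letters, then GAAA) in B2M, TAP1, TAP2 and TAPBP, the shorter GAANNGAAA in HLA-B and HLA-C, the letters TGACG of the CREB/ATF core and the letters CCAAT of the NF-Y box, each on either strand, and neighbouring matches can overlap. Each line ends before the gene start and is written 5′ to 3′ on the strand of the gene, which is the minus strand for all but B2M. The stretches are chr6:31357219-31357344 for HLA-B, chr6:31272132-31272257 for HLA-C, chr15:44711367-44711477 for B2M, chr6:32853814-32853849 for TAP1, chr6:32838774-32838809 for TAP2 and chr6:33314079-33314114 for TAPBP.
HLA-B: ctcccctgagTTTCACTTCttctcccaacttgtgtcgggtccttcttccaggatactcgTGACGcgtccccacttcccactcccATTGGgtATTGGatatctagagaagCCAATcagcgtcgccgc
HLA-C: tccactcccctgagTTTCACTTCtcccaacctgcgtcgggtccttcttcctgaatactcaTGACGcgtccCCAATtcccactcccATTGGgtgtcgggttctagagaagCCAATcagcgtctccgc
B2M: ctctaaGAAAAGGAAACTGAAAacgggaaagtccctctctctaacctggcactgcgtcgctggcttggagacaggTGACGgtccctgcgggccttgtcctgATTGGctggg
TAP1: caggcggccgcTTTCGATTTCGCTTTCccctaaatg
TAP2: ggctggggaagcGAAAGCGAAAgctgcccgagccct
TAPBP: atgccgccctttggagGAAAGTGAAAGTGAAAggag

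HLA-B, HLA-C and B2M were the members whose windows held TGACG and CCAAT together, as did 8.69% of all 35116 windows of that length (24.6% held TGACG and 34.6% held CCAAT). TAP2 held TGACG without CCAAT, beginning at the last base of its printed stretch and so not marked there. TAP1, outside its printed stretch, and ERAP1 held CCAAT without TGACG. The ISRE core occurred in the windows of B2M, TAP1, TAP2, TAPBP and ERAP1, in the last of these beyond the start, against 3.57% of all windows, and GAANNGAAA, which occurred in HLA-B, HLA-C, TAP2 and ERAP1, in 7.66%. The windows of HLA-B and HLA-C were identical at 269 of 304 aligned positions, or 88.5%. These are matches of letters and were not measured as binding sites.

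The estimated counts summed to 21846389 and 18707758 in NC replicates 1 and 2 and to 7742274 and 24392875 in OE replicates 1 and 2. Values below are CPM, counts scaled to a common library size by TMM, and levels of different genes are not compared because no coding length was used. The NC libraries differed by an SD of 0.46 in log2 CPM across 12560 tested genes and the OE libraries by 1.30. OE replicate 1 stands apart: its median log2 difference from NC ran from 1.17 among the genes with the lowest NC level to -1.08 among those with the highest, with genes split into 10 equal classes of NC level, while for OE replicate 2 all classes lay between -0.09 and 0.07. The part of this shift in the member values was not tested, and they are given for each library and with either OE library left out. METTL14 itself had 44.5 and 47.6 CPM under NC and 448 and 91.2 CPM under OE, higher in both OE libraries (log2 fold change 2.55, SE 0.81), and did not pass edgeR's test (quasi-likelihood, Benjamini-Hochberg adjusted p = 0.734).

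**Figure D1:**
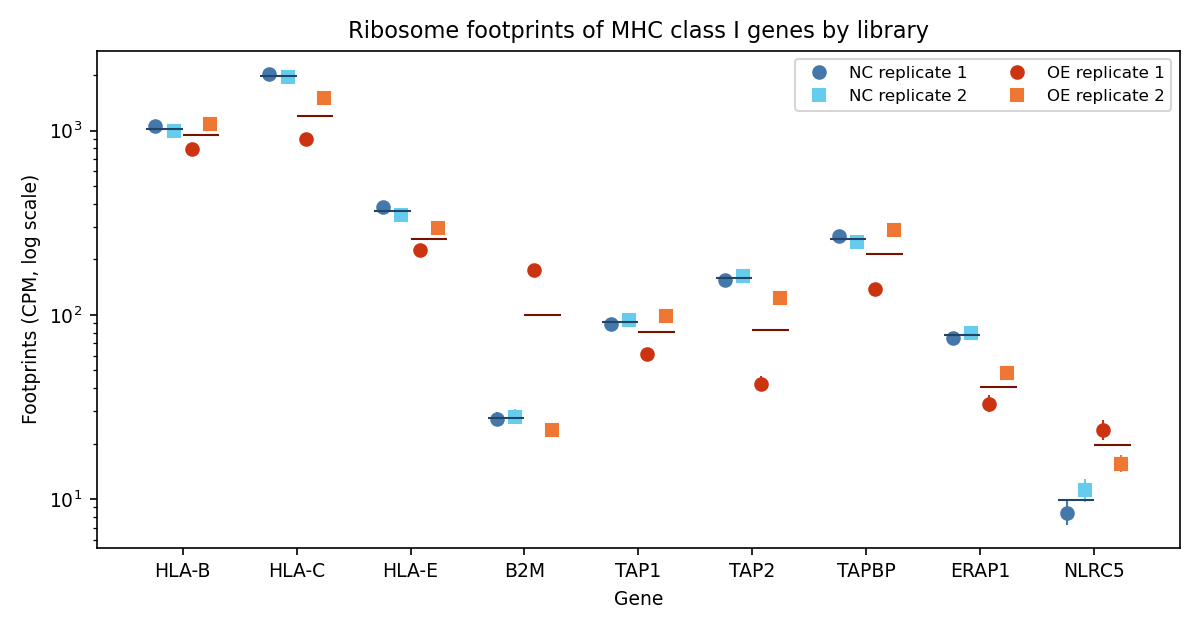
Footprints of the 9 class I genes in each library, in CPM on a log axis. Points are libraries, vertical lines (mostly hidden by the points) are exact Poisson 95% intervals of the counts, and horizontal lines are group means of 2 libraries. B2M had 176 CPM in OE replicate 1 against 23.8 to 28.0 CPM elsewhere, ERAP1 lay lower and NLRC5 higher in both OE libraries.

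Of the 9 members, HLA-C, HLA-E, TAP2 and ERAP1 had fewer footprints in each OE library than in either NC library, NLRC5 had more, and the other 4 overlapped. The background for this count was 20.4% of tested genes lower and 19.9% higher in both OE libraries. None of the members (0 of 9) passed edgeR's quasi-likelihood test after adjustment over 12560 genes (Benjamini-Hochberg), and neither did any other gene (0, or 0% of genes tested, with 691, or 5.5%, at an unadjusted p below 0.05, 25 genes called by DESeq2 and 29 by edgeR's likelihood ratio test). ERAP1 and NLRC5 were the 2 members at an unadjusted p below 0.05. The median log2 fold change of the members was -0.27, against 0.09 over all tested genes. When scaled by library totals alone, it was -0.05, against 0.40. With quantile normalization it was -0.07, against -0.02, and 3 members and 2603 of 12560 tested genes lay lower in both OE libraries. In OE replicate 1 the members' median difference from NC was -0.71 and in OE replicate 2 it was -0.22, against 0.02 and 0.00063 over all tested genes. In OE replicate 1, 4 members fall in the level class with a median of -1.08 and 2 in the class with -0.65. ERAP1, B2M and NLRC5 fall in classes with -0.34, 0.06 and 0.40. Single members lay on either side of their class, with HLA-B at -0.36 in the first class and TAP2 at -1.89 in the second. The part of the level shift in the members' median was not tested. In bulk libraries, fewer cells making a protein and fewer footprints per cell cannot be told apart.

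Leaving out either OE library changed which values passed. Without OE replicate 1, HLA-C, ERAP1 and NLRC5 were called, in a fit that called 34.1% of 12711 genes, and 5 members lay below and 4 above both NC libraries (42.4% and 42.8% of genes). Without OE replicate 2, all 9 members were called, in a fit that called 60.9% of 13079 genes, and 7 lay below and 2 above both NC libraries (45.5% and 46.9% of genes). Both fits hold 1 OE library, take their spread from the NC libraries alone, and assume that the lone OE library varies as little as NC did.

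**Figure D2:**
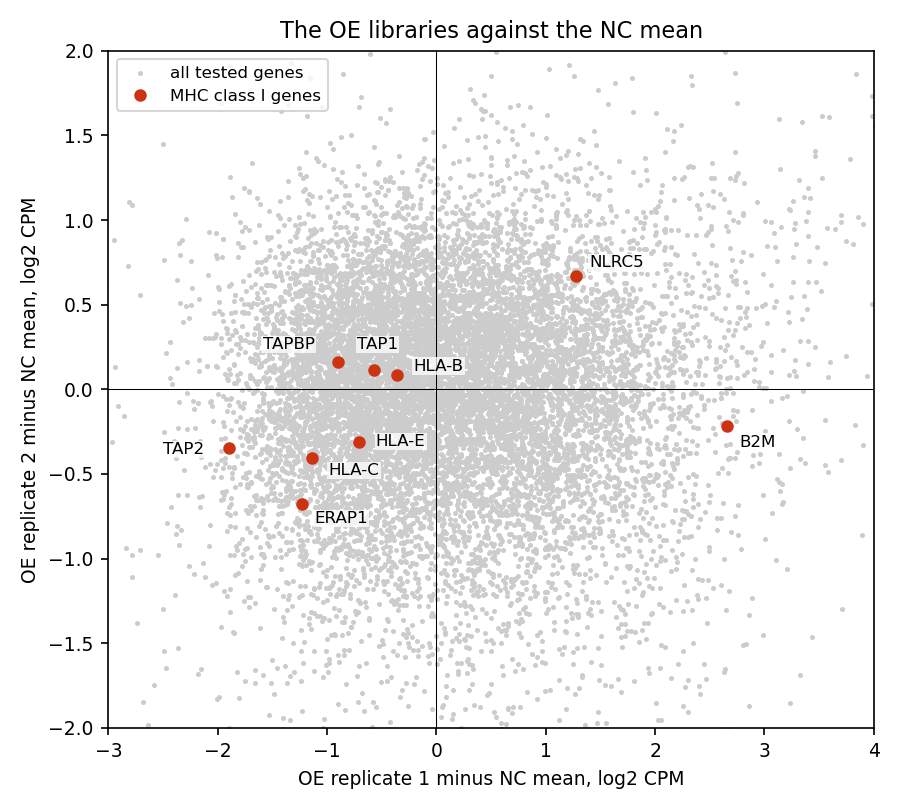
Difference of each OE library from the NC mean in log2 CPM, OE replicate 1 on the horizontal axis and OE replicate 2 on the vertical axis. Grey points are the 12560 tested genes (273 lie outside the plotted range) and red points the 9 members. TAP2, ERAP1, HLA-C and HLA-E lie below 0 on both axes and NLRC5 above 0 on both, whereas B2M lies far to the right at 2.66 and slightly below 0 at -0.22.

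NLRC5 (ENSG00000140853), the transactivator of class I genes, was the member with more footprints in both OE libraries. It had 8.45 and 11.2 CPM under NC and 23.8 and 15.6 CPM under OE. The means were 9.82 ± 1.95 against 19.7 ± 5.83 CPM (SD, n = 2 each). The groups did not overlap, and Poisson 95% limits (exact, of counting error alone) were 9.67 and 12.9 CPM for NC replicate 2, and 14.0 and 17.3 CPM for OE replicate 2. On the log2 scale OE exceeded NC by 1.00 (SE 0.38), with an adjusted p of 0.734 (0.0467 unadjusted) in edgeR's quasi-likelihood fit. It was 0.67 (adjusted p = 0.0230, edgeR) without OE replicate 1 and 1.24 (adjusted p = 2.53e-05, edgeR) without OE replicate 2. In OE replicate 1, where messages of low NC level had more footprints in general, the level class of NLRC5 had a median difference of 0.40, and NLRC5 had 1.28. In OE replicate 2 that class had 0.07 and NLRC5 0.67.

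Among the heavy chains, HLA-C (ENSG00000204525) lay lower in OE. This classical class I molecule, a ligand of killer cell immunoglobulin-like receptors, had 2026 and 1943 CPM under NC and 901 and 1496 CPM under OE. The means were 1985 ± 58.7 against 1199 ± 421 CPM (SD, n = 2 each). Both OE libraries were below both NC libraries. The log2 fold change was -0.73 (SE 0.60, edgeR adjusted p = 0.758), with -0.41 (edgeR adjusted p = 0.0211) without OE replicate 1 and -1.18 (edgeR adjusted p = 1.17e-08) without OE replicate 2. HLA-E (ENSG00000204592), which presents leader peptides of other class I chains to the receptor CD94/NKG2, had 385 and 347 CPM under NC and 224 and 295 CPM under OE. Its groups did not overlap either, and its log2 fold change was -0.50 (SE 0.41, edgeR adjusted p = 0.759), or -0.31 without OE replicate 1 (not called) and -0.75 (edgeR adjusted p = 6.28e-05) without OE replicate 2. When scaled by library totals alone, HLA-C had -0.47 and HLA-E -0.20, and with quantile normalization they had -0.30 and -0.07. The level class of both genes had a median of -1.08 for OE replicate 1 and -0.08 for OE replicate 2, against -1.14 and -0.41 for HLA-C and -0.71 and -0.31 for HLA-E.

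HLA-B (ENSG00000234745), the most polymorphic classical heavy chain, overlapped between the groups. It had 1058 and 995 CPM under NC and 799 and 1089 CPM under OE. The means were 1027 ± 44.2 against 944 ± 205 CPM (SD, n = 2 each), so OE replicate 1 was the lowest library and OE replicate 2 the highest. Its log2 fold change was -0.12 (SE 0.52, edgeR adjusted p = 0.954). It turned to 0.09 (not called) without OE replicate 1 and was -0.40 (edgeR adjusted p = 0.0144) without OE replicate 2. It was also above 0 with library totals as the only scaling (0.17, where the median of all genes moved from 0.09 to 0.40) and with quantile normalization (0.24). With the 3 heavy chains summed into 1 row before the fit, the log2 fold change was -0.49 (SE 0.66, edgeR adjusted p = 0.844).

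The makeup of the heavy chain footprints, which does not depend on library scaling, did not overlap between the groups for HLA-B and HLA-C. HLA-B made up 30.5% and 30.3% of the HLA-B, HLA-C and HLA-E footprints in NC and 41.5% and 37.8% in OE, or 30.4% ± 0.143 against 39.7% ± 2.63 (SD, n = 2 each). HLA-C made up 58.4% and 59.1% in NC and 46.8% and 51.9% in OE. HLA-E had a share between 10.2% and 11.6% in the 4 libraries. The ratio of HLA-B to HLA-C was thus 0.522 and 0.512 in NC and 0.887 and 0.728 in OE, a log2 difference of 0.64 with no overlap. Leaving out OE replicate 1 gave 0.49, and leaving out OE replicate 2 gave 0.78. An exact two-sided permutation test gave p = 0.333, the smallest that 2 libraries against 2 allow (Benjamini-Hochberg adjusted p = 0.5 over 6 ratios), and this ratio was chosen after the heavy chain values were seen. Counts of these related genes can share reads, which an estimate divides among genes. How the deposited counts did so, and against which alleles, is not given in the sources used here.

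**Figure D3:**
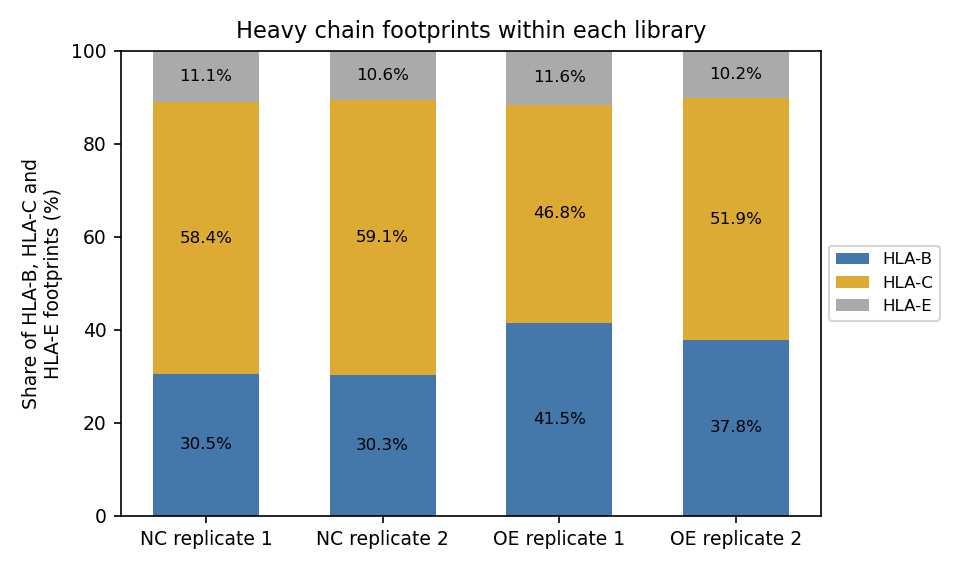
Share of each heavy chain in the HLA-B, HLA-C and HLA-E footprints of a library, in percent, with 1 stacked bar for each library. The HLA-B share is 30.5% and 30.3% in the NC bars and 41.5% and 37.8% in the OE bars, and the HLA-E share lies between 10.2% and 11.6%.

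B2M (ENSG00000166710), the invariant light chain that every class I heavy chain needs to reach the surface, had the widest spread between the OE libraries on the log2 scale, at 2.87. Its level was 27.3 and 28.0 CPM under NC and 176 and 23.8 CPM under OE. The means were 27.7 ± 0.477 against 99.7 ± 107 CPM (SD, n = 2 each). OE replicate 1 alone was high, and OE replicate 2 lay below both NC libraries. Its exact Poisson 95% limits were 168 and 184 CPM for OE replicate 1, and 21.8 and 26.0 CPM for OE replicate 2, so the gap between the OE libraries was larger than counting error. The log2 fold change of 1.85 (SE 0.92, edgeR adjusted p = 0.734) turned to -0.21 (not called) without OE replicate 1 and was 2.62 (edgeR adjusted p = 2.05e-15) without OE replicate 2. Genes at its NC level had a median difference of 0.06 in OE replicate 1, where B2M had 2.66. Summed heavy chain footprints were 127 and 117 times those of B2M in NC and 10.96 and 121 times in OE, ratios that reflect coding length as well as translation. Their log2 difference was -1.74 (exact two-sided permutation p = 0.667), or -0.01 without OE replicate 1 and -3.48 without OE replicate 2.

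Of the transporter chains, TAP2 lay lower under OE and TAP1 overlapped. TAP2 (ENSG00000204267) had 154 and 162 CPM under NC and 42.4 and 124 CPM under OE, lower in both OE libraries, with a log2 fold change of -0.92 (SE 0.57, edgeR adjusted p = 0.734). TAP1 (ENSG00000168394) had 89.6 and 93.3 CPM under NC and 61.4 and 98.9 CPM under OE, overlapping, with a log2 fold change of -0.19 (SE 0.37, edgeR adjusted p = 0.893). The ratio of TAP1 to TAP2 footprints was 0.583 and 0.577 in NC and 1.45 and 0.798 in OE, higher in both OE libraries by 0.89 on the log2 scale (exact two-sided permutation p = 0.333, the smallest possible; Benjamini-Hochberg adjusted p = 0.5). Leaving out OE replicate 1 gave 0.46, and leaving out OE replicate 2 gave 1.32. TAP2 had a log2 fold change of -0.34 (not called) without OE replicate 1 and of -1.94 (edgeR adjusted p = 1.52e-11) without OE replicate 2. TAP1 turned to 0.12 (not called) without OE replicate 1, reached 0.07 when libraries were scaled by their totals only, and was -0.61 (edgeR adjusted p = 0.00165) without OE replicate 2. In OE replicate 1, genes at the NC level of both had a median of -0.65, between the -0.57 of TAP1 and the -1.89 of TAP2.

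TAPBP (ENSG00000231925), the tapasin that bridges the transporter and the heavy chain, overlapped between the groups. It had 268 and 249 CPM under NC and 138 and 289 CPM under OE, so OE replicate 1 was the lowest library and OE replicate 2 the highest. Its log2 fold change was -0.27 (SE 0.50, edgeR adjusted p = 0.886), with 0.16 (not called) without OE replicate 1 and -0.95 (edgeR adjusted p = 2.48e-06) without OE replicate 2. Scaling by library totals alone gave -0.05, as did quantile normalization.

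ERAP1 (ENSG00000164307), the ER aminopeptidase that shortens peptides to the length a class I groove holds, had the smallest unadjusted p of the members. It had 75.3 and 79.5 CPM under NC and 32.9 and 48.3 CPM under OE. The means were 77.4 ± 3.01 against 40.6 ± 10.9 CPM (SD, n = 2 each). Both OE libraries were below both NC libraries. The ratio of OE to NC was 0.525, or -0.93 (SE 0.34) on the log2 scale, with an adjusted p of 0.734 (0.0405 unadjusted) in edgeR's quasi-likelihood fit. It was -0.68 (edgeR adjusted p = 0.00162) without OE replicate 1 and -1.27 (edgeR adjusted p = 1.71e-07) without OE replicate 2. Its level class had a median of -0.34 for OE replicate 1 and 0.01 for OE replicate 2, against -1.23 and -0.68 for ERAP1.

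The other peptidases that trim or destroy class I peptides were taken from a list of 8 genes, all tested, of which 0 passed edgeR's test in either direction. Of these, 4 were lower in both OE libraries and 1 was higher, with a median log2 fold change of -0.43 (-0.14 with library totals as the only scaling, and -0.01 without OE replicate 1). The shares over all tested genes were 20.4% lower and 19.9% higher. Its members with the smallest p all lay lower. LNPEP, an endosomal aminopeptidase used in cross-presentation, had 118 and 133 CPM under NC and 76.1 and 63.8 CPM under OE. ERAP2, the ER partner of ERAP1, had 145 and 158 CPM under NC and 83.3 and 90.0 CPM under OE, with a log2 fold change of -0.81 (SE 0.32). The cytosolic peptidases TPP2 and LAP3 had -0.44 and -0.61, with LAP3 at 192 and 196 CPM under NC and 70.0 and 183 CPM under OE. The ER peptidases ERAP1 and ERAP2 were therefore both below NC in each OE library.

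Most partners of the class I chain in loading and glycoprotein folding lay lower. Of 15 genes, all tested, 12 were lower in both OE libraries, 0 were higher and 0 passed edgeR's test, with a median of -1.02 (-0.74 with library totals as the only scaling, -0.62 with quantile normalization, which took the median of all genes to -0.02, and -0.74 and -1.45 without OE replicates 1 and 2). These chaperones had already been described as lower in these data when the list was made. Without matching for NC level, 20.4% of all tested genes were lower and 19.9% higher in both OE libraries. The class of highest NC level had a median difference of -1.08 for OE replicate 1, where this list had -1.40. For OE replicate 2 the class had -0.08 and the list -0.73. The part of the level shift in this list was not tested. UGGT1, which reglucosylates misfolded glycoproteins and edits class I cargo, had 360 and 399 CPM under NC and 188 and 123 CPM under OE. The Hsp70 chaperone HSPA5 and the glucosidase II subunits GANAB and PRKCSH had log2 fold changes of -2.17, -1.32 and -1.10. HSPA5 was the gene of the list called by DESeq2 (adjusted p = 0.00273) and by edgeR's likelihood ratio test (adjusted p = 0.0422). Named here for their role in the loading complex and not by rank, PDIA3 (ERp57) had -1.36 and CANX, which holds the free heavy chain, -1.02. TAPBPL, the tapasin-related peptide editor, overlapped between the groups at 12.9 and 10.3 CPM under NC and 12.1 and 14.6 CPM under OE.

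The proteasome supplies the peptides, and the 10 listed genes of its catalytic and activator subunits overlapped between the groups. Of the 7 genes of the immunoproteasome and the proteasome activators 0 were lower or higher in both OE libraries, 0 passed edgeR's test, and the median was 0.12 (-0.47 without OE replicate 2). The same held for the 3 constitutive catalytic subunits, with a median of -0.35. That median turned to 0.25 without OE replicate 1 and was -1.55 without OE replicate 2. PSMB8 had 75.1 and 69.9 CPM under NC and 52.8 and 136 CPM under OE, while PSMB5, the subunit it replaces, had 304 and 246 CPM under NC and 74.2 and 420 CPM under OE. The ratio of PSMB8 to PSMB5 was 0.247 and 0.284 in NC and 0.712 and 0.325 in OE, and that of PSMB10 to PSMB7 0.0680 and 0.0723 in NC and 0.139 and 0.0995 in OE. Both ratios were higher in each OE library, by 0.86 and 0.75 on the log2 scale (exact two-sided permutation p = 0.333 for both). For PSMB8 to PSMB5, leaving out OE replicate 1 gave 0.29, and leaving out OE replicate 2 gave 1.42. For PSMB10 to PSMB7 these values were 0.51 and 0.99. In each ratio the constitutive subunit had the higher CPM in NC. In OE replicate 1 the medians of the level classes fell from 1.17 at the lowest NC level to -1.08 at the highest. The part of this shift in the ratios was not tested. For PSMB9 to PSMB6 the ratio was 0.0402 and 0.0530 in NC and 0.188 and 0.0356 in OE, so only OE replicate 1 stood above NC (exact two-sided permutation p = 1). PSMB9, which lies head to head with TAP1, had 10.3 and 12.7 CPM under NC and 16.4 and 10.04 CPM under OE. The activator genes PSME1, PSME2 and PSME4 had log2 fold changes of -0.37, -0.33 and -0.21.

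Factors that control class I transcription lay higher in both OE libraries about as often as all genes (19.9%). Of 29 genes 28 were tested, 3 were lower and 5 higher in both OE libraries, 0 passed edgeR's test, and the median was 0.28, against 0.09 over all genes (0.10 with quantile normalization, and 0.13 and 0.09 without OE replicates 1 and 2). When scaled by library totals alone, 2 were lower and 11 higher and the median was 0.64, against 0.40 over all genes. With that scaling, 1474 of all 12560 tested genes were lower and 3798 higher in both OE libraries. The members with the smallest p were all higher in both OE libraries. TYK2, a kinase of the interferon receptors, had 25.6 and 24.7 CPM under NC and 56.1 and 36.7 CPM under OE. RFXAP, a subunit of the RFX complex that NLRC5 joins, had 7.31 and 8.50 CPM under NC and 20.2 and 10.9 CPM under OE. JAK2, a kinase of the interferon gamma receptor, had a log2 fold change of 1.07 (SE 0.51), and EZH2, the methyltransferase of a repressive histone mark, 0.69 (SE 0.29). The 3 genes lower in both OE libraries were IFNGR1, STAT3 and JAK1, with log2 fold changes of -0.66, -0.59 and -0.25. CIITA, the class II counterpart of NLRC5, had 0 counts in all 4 libraries, which allows up to 3 counts in each, or 0.136 to 0.286 CPM.

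Other class I and class I-like molecules, of which 15 of 17 were tested, were lower in both OE libraries for 10 genes and higher for 0, with a median of -0.67 (-0.41 with library totals as the only scaling and -1.08 without OE replicate 2) and 0 passing edgeR's test. The share lower over all tested genes, not matched for NC level, was 20.4%. The NKG2D ligands RAET1L and ULBP2, stress signals to natural killer cells that are built on a class I fold, lay lower by log2 fold changes of -1.35 (RAET1L, SE 0.41) and -0.99 (ULBP2, SE 0.38). RAET1L had 99.3 and 103 CPM under NC and 27.9 and 51.2 CPM under OE. RAET1G had 2.73 and 3.17 CPM under NC and 0.476 and 1.63 CPM under OE, and HFE, the iron-regulating class I-like protein that pairs with B2M, had -0.87. The ULBP and RAET1 genes are close in sequence, and the limit given for the heavy chains holds for them too.

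Genes of class I export and turnover were lower in both OE libraries for 12 of 21 tested and higher for 1, with a median of -0.38 (-0.13 with library totals as the only scaling and -0.82 without OE replicate 2) and 0 passing edgeR's test. MARCHF9, a membrane ubiquitin ligase that lowers surface class I, was the gene that lay higher, at 4.89 and 5.04 CPM under NC and 24.7 and 9.45 CPM under OE. The COPII cargo adaptor SEC24D and the ER-associated degradation factors SEL1L and SYVN1 had log2 fold changes of -1.06, -0.95 and -0.96. A list of 32 surface glycoproteins made at the ER, which are not part of the pathway, had 21 genes lower in both OE libraries, 1 higher and a median of -0.69 (-0.41 with library totals as the only scaling, -0.30 with quantile normalization, and -0.26 and -1.09 without OE replicates 1 and 2). Its members with the smallest p were EGFR, CD151, ATP1B1 and ITGB1, with -1.21, -1.25, -1.16 and -0.95. The median of the class I members (-0.27) was nearer to 0 than that of these glycoproteins, a difference that was not tested. The share of all tested genes lower in both OE libraries was 20.4%, without matching for NC level. In OE replicate 1 the export genes had a median difference of -0.76 and the glycoproteins -1.05, and in OE replicate 2 -0.37 and -0.26. The classes of highest NC level had -0.65 and -1.08 in OE replicate 1. The part of this shift in these lists was not tested.

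**Figure D4:**
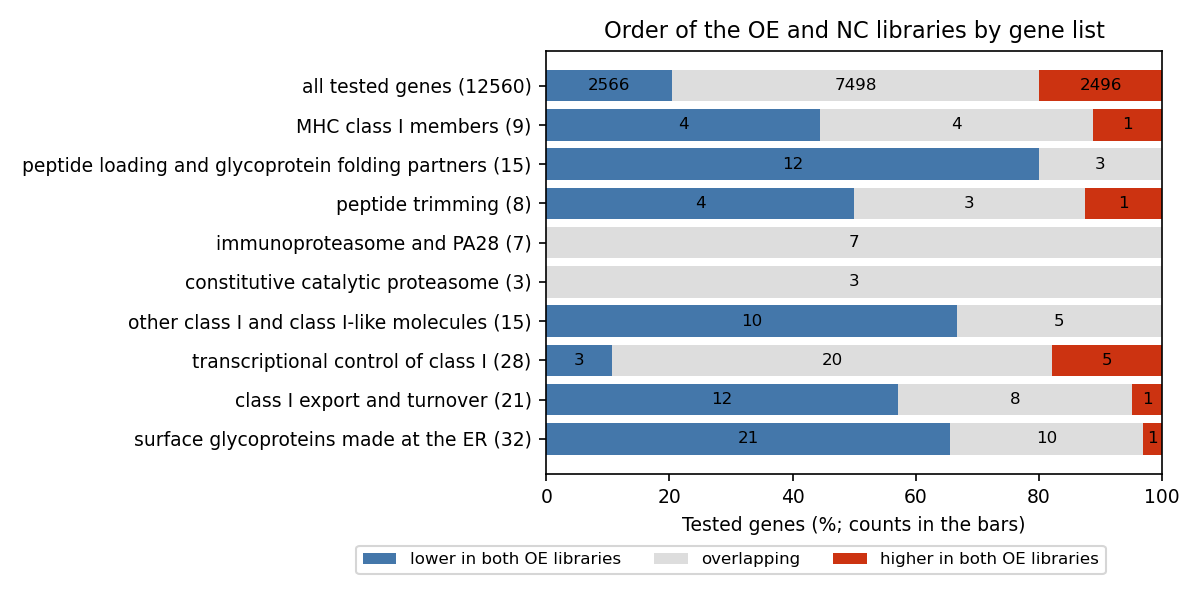
Percent of tested genes in each list that were lower in both OE libraries (blue), overlapping (grey) or higher in both (red), with the number of genes in each bar segment. All 12560 tested genes are in the top bar, at 20.4% lower and 19.9% higher, and the 9 class I members, of which 4 are lower and 1 is higher, in the next.

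Over the 4 libraries, the genes with a profile most like the median profile of the members were RANBP3, BRAP, SLC12A7, DERL2 and TIMP2. Likeness was the Euclidean distance between log2 CPM values centred on each gene's mean, from 0.0451 for RANBP3 to 0.0632 for TIMP2, against a median of 0.783 over 8970 candidates. RANBP3 had 83.6 and 79.3 CPM under NC and 51.1 and 78.9 CPM under OE, a profile clearly lower in OE replicate 1 and close to NC in OE replicate 2. Among the members TAP1 was nearest to the median profile (0.170) and B2M and NLRC5 farthest (2.92 and 1.62), so the median profile describes neither of these last genes.

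Markers that define other cells were mostly low or at 0, with CD68 as an exception. Of 18 immune cell markers 6 had 0 counts in every library, among them CD3E and MS4A1, and PTPRC had at most 1 count in a library. Their summed level was 84.9 and 88.5 CPM under NC and 46.4 and 34.2 CPM under OE, of which CD68 alone gave 70.6 and 75.5 CPM under NC and 40.8 and 28.7 CPM under OE. CD14, with the smallest p of this list, had 11.5 and 8.97 CPM under NC and 2.47 and 2.80 CPM under OE. In the class II list, HLA-DRA, HLA-DRB1 and 4 other genes had 0 counts in every library. Of its 15 genes 5 were tested, and 3 were lower in both OE libraries, namely the lysosomal thiol reductase IFI30 (620 and 579 CPM under NC and 143 and 441 CPM under OE), the protease LGMN (141 and 141 CPM under NC and 70.2 and 102 CPM under OE) and HLA-DMA (log2 fold change -0.41), with a median of -0.65 and 0 passing edgeR's test. Of 10 epithelial markers 9 were tested. In both OE libraries 5 of them were lower, CDX2 was higher (27.1 and 21.9 CPM under NC and 27.2 and 44.3 CPM under OE), and KRT8, KRT18 and KRT20 overlapped. VIL1 and CDH1, which had the smallest p, were among the lower, with log2 fold changes of -1.09 and -0.87. KRT20 was at most 1.45 CPM, and EPCAM had 1453 and 1379 CPM under NC and 554 and 1208 CPM under OE. The 2 tested markers of stromal and endothelial cells, PDGFRB and COL1A1, were lower in both OE libraries, and the list summed to 10.1 and 10.7 CPM under NC and 7.04 and 2.98 CPM under OE. Over all tested genes, not matched for NC level, 20.4% were lower and 19.9% higher in both OE libraries. The classes of highest NC level had medians of -0.65 and -1.08 in OE replicate 1. The part of this shift in the marker and class II lists was not tested.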

How the data were processed

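Ribosome footprint libraries of 2 NC and 2 OE cultures were analysed. The authors deposited 1 estimated count per Ensembl gene and library, per the file headers, and between 13.8% and 14.7% of the values held a fraction, so these expected counts were rounded. RSEM, StringTie, HISAT2, Bowtie2 and fastp appear with build hg18 in the submitters' processing notes. For versions, annotation and strand, nothing was given in the sources used here. Genes were kept by filterByExpr (minimum count 10, total 15, proportion 0.7), scaled by TMM and tested with edgeR 4.0.16 in R 4.3.3, by the quasi-likelihood test on group alone (2 residual degrees of freedom), calling genes at a Benjamini-Hochberg adjusted p below 0.05 among 12560. Log2 CPM used a prior count of 2. With limma 3.58.1 and DESeq2 1.42.0 as alternatives, each choice was changed in turn. On simulated counts with equal spread in both groups, over 12560 genes, 15% of 4-fold and 98% of 16-fold changes were recovered. Replicates of a group differed beyond sampling noise, with a chi-square per degree of freedom of 13.0 (NC) and 330.1 (OE). P-values of the main fit set the group difference against the spread between these libraries, which edgeR moderates across genes (3.09 prior degrees of freedom). The members and lists were chosen with earlier results of these data known. Named were all members, METTL14, up to 4 tested genes of each list with the smallest p, genes used in ratios and the 5 genes nearest the members' median profile with a mean of at least 10 CPM. Other names were chosen after their values were seen, marker genes among them.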

Additional observations from a re-analysis of the deposited data

How the results depend on the processing

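Over all 4 libraries, the member values kept their direction in 93 of 96 values under other settings and 0 were called, with a smallest adjusted p of 0.497 (B2M, DESeq2). The exceptions were HLA-B (0.17) and TAP1 (0.072) with library totals only and HLA-B (0.24) with quantile normalization. With library totals only, 2 members lay higher in both OE libraries, and over all genes 1474 were lower and 3798 higher, against 2566 and 2496. Genes called numbered 0, against 25 by DESeq2, 29 by the likelihood ratio test and 24 with the replicate block, where the members' median was -0.37. The replicate numbers were not shown to pair the libraries, since their deviations correlated at -0.0974 across genes, and the block changed no member's call. Leaving out 1 library at a time, calls ranged from 7 to 7969, members lower in OE from 4 to 7, members higher from 1 to 4 and the members' median from -0.75 to -0.21. Log2 fold changes then ranged from -0.40 to 0.087 for HLA-B, -1.18 to -0.41 for HLA-C, -0.75 to -0.31 for HLA-E, -0.21 to 2.62 for B2M, -0.61 to 0.12 for TAP1, -1.94 to -0.34 for TAP2, -0.95 to 0.16 for TAPBP, -1.27 to -0.68 for ERAP1 and 0.67 to 1.24 for NLRC5. The cause of these shifts was not tested. Levels per coding length were not run, as no coding length was used. With 7742274 counts OE replicate 1 is the shallowest library, where 3 counts equal 0.286 CPM.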
